A study of Gallus gallus with 26 samples.

Results

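The 50 genes with the largest sum of raw counts over 26 libraries of chicken complexus muscle are described here, out of 8758 genes in the deposited table. They were chosen by that sum alone, and together they held 43.3% of all counts. The libraries came from frozen complexus of broiler chickens, a meat breed of Gallus gallus. By their labels, E15 and E17 (embryonic days) had 6 libraries each, E19 and E20 had 5 each, and E21 had 4. The series description calls the last days hatch and chick placement. Only age sets the groups apart in the labels, and no treatment or genotype is named. The labels name no batch and do not state that each library was a bird of its own. The p-values therefore cover the spread among these samples, which may be technical.

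The complexus is the neck muscle that lifts the head of the chick and drives the beak through the shell at hatching. It grows before hatching and regresses afterwards. In skeletal muscle generally, a few kinds of transcript, those for contractile proteins, energy enzymes and calcium handling take a large part of the messenger RNA. The share of counts on the leading genes describes how concentrated a transcriptome is.

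The deposited table gives Ensembl identifiers without gene names, and none of them matched the RefSeq table used, so no function can be attached to a gene and the tissue could not be checked against marker genes. Each gene is therefore called by its rank, gene 1 having the most counts and gene 50 the least of the 50. A share is the percentage of all counts of a library that fall on a gene. Counts were used as deposited, without division by transcript length. Details on molecular identifiers were not given, so the ranks order counts, which need not equal numbers of molecules. In bulk tissue a lower share can come from fewer cells of a type or from less of the RNA per cell, which cannot be told apart. The libraries held 580768 to 2208872 counts. No gene of the 50 had fewer than 238 counts in any library.

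The counts were steeply graded within the list. Gene 1 (ENSGALG00000011086.5) had 2633392 counts, 8.65% of the total, and gene 2 had 2.57%. Genes 3 to 9 had between 2.36% and 1.52%. Gene 1 was the most abundant gene in each of the 26 libraries. At the lower end the choice of members was close: gene 50 had 79293 counts, and the next gene, outside the list, had 78083. A choice by the mean share over libraries gave the same 50 genes, and a choice by the mean of the day means shared 49 of them.

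The share of the 50 genes rose up to E19 and then fell below its starting level. At E15 it lay between 40.4% and 43.6% with a median of 41.6%, and at E17 between 44.9% and 49.1% with a median of 47.6%. The E19 libraries stood at 52.9%, 50.3%, 50.6%, 50.8% and 53.2%. These 5 values lie above every library of the other days. The E20 libraries stood at 44.98%, 45.2%, 44.2%, 44.1% and 42.8%, and the E21 libraries at 29.9%, 30.98%, 31.2% and 29.6%. E20 thus overlapped with the range of E15 and of E17, while E21 lay below all other libraries. The means were 41.9% ± 1.10 (SD, n = 6), 47.5% ± 1.51 (SD, n = 6), 51.5% ± 1.38 (SD, n = 5), 44.3% ± 0.963 (SD, n = 5) and 30.4% ± 0.805 (SD, n = 4). They are given as a description, since the genes were chosen by their counts in these libraries.

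**Figure D1:**
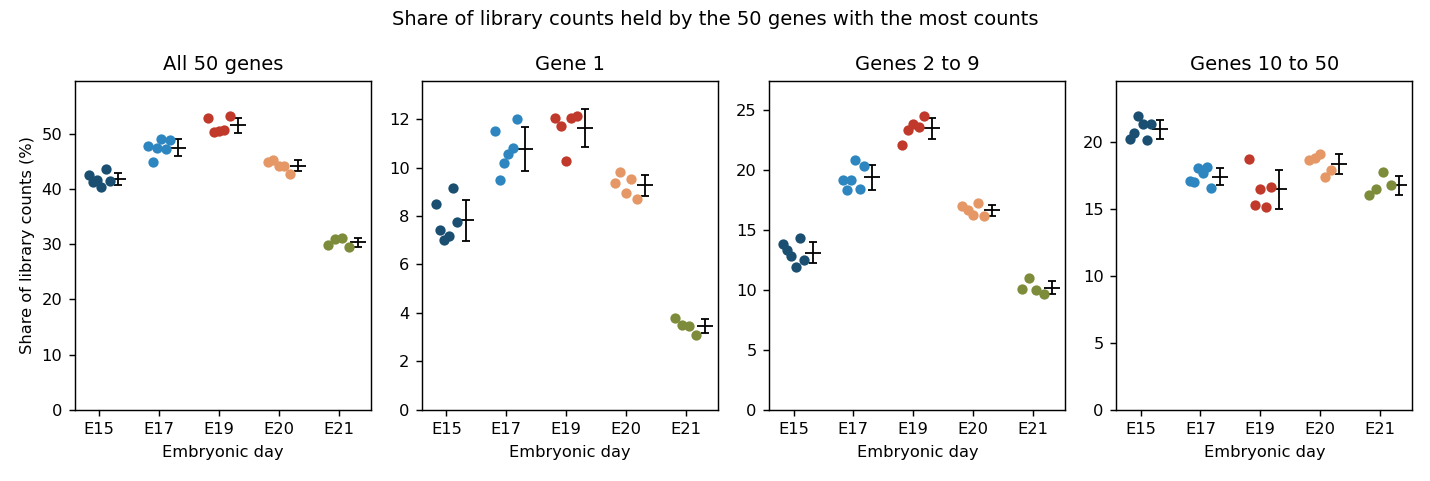
Share of library counts (%) on the vertical axis against embryonic day, for all 50 genes, gene 1, genes 2 to 9 and genes 10 to 50. Each point is 1 library, and the black bars give the mean and SD of a day. Genes 1 to 9 rise to E19 and fall to E21, whereas genes 10 to 50 start at a mean of 21.0% and have means of at most 18.4% on the later days.

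A rise to E19 and a fall to E21 were also seen when each library was ranked anew. Its own leading 50 genes took 42.9% ± 0.979 at E15 (SD, n = 6), 52.7% ± 1.14 at E19 (SD, n = 5) and 34.1% ± 0.950 at E21 (SD, n = 4). The number of genes needed to reach 50% of the counts fell from 72 to 85 per library at E15 to 36 to 44 at E19. It then stood at 68 to 79 at E20 and 130 to 149 at E21. The 10 leading genes of a library alone took 23.7% ± 1.23 at E15 (SD, n = 6), 36.4% ± 0.950 at E19 (SD, n = 5) and 17.7% ± 0.703 at E21 (SD, n = 4).

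**Figure D2:**
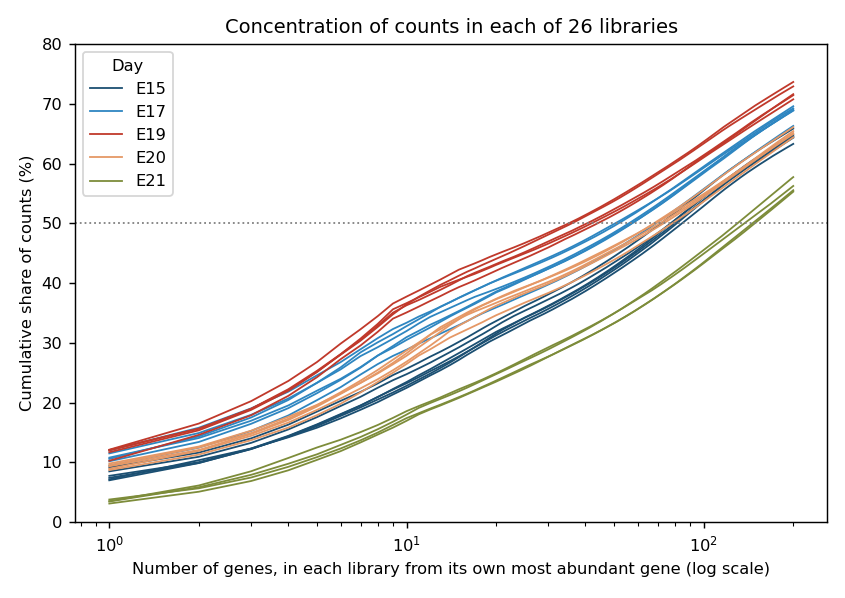
Cumulative share of counts (%) against the number of genes counted from the most abundant gene of each library (log scale), 1 line per library, coloured by day. The E19 lines reach 50% (dotted line) at 36 to 44 genes and the E21 lines at 130 to 149 genes.

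Membership of the list changed with age. By day means, 45 of the 50 genes were also among the 50 leading genes of E15 and 44 among those of E17. For E19, E20 and E21 the numbers were 42, 38 and 35. These numbers are a description, since the list was chosen by counts summed over the same libraries. That choice favours days with more counts, and E15 and E17 had 6 libraries each against 4 at E21. The 15 other genes among the leading 50 at E21 held 5.73% of the counts, and the highest of them stood in position 15 with 0.628%. The leading positions were exchanged as well. At E15 gene 10 was in position 2, and by E21 it was in position 37. Gene 15 moved from position 32 at E15 to position 2 at E21. Genes 16, 17, 21, 22, 25, 30 and 33 were beyond position 100 at E21, the lowest being gene 22 in position 328.

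The gain up to E19 was carried by genes 1 to 9. From E15 to E19 the mean share of the 50 genes rose by 9.66 points, as the balance of 15.97 points gained by 21 genes and 6.31 points lost by 29. Genes 1 to 9 all gained, together 14.2 points, which is 88.7% of all points gained. Gene 1 contributed 3.81 points of these and genes 2 to 9 contributed 10.4. The other 41 genes together fell by 4.50 points. At E15 gene 1 already held 7.83% of the counts and genes 2 to 9 held 13.1%, of 41.9% for the 50 genes. The grouping into genes 1 to 9 and the rest was chosen after the values were seen. All of genes 1 to 9 had their highest day mean at E19.

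**Figure D3:**
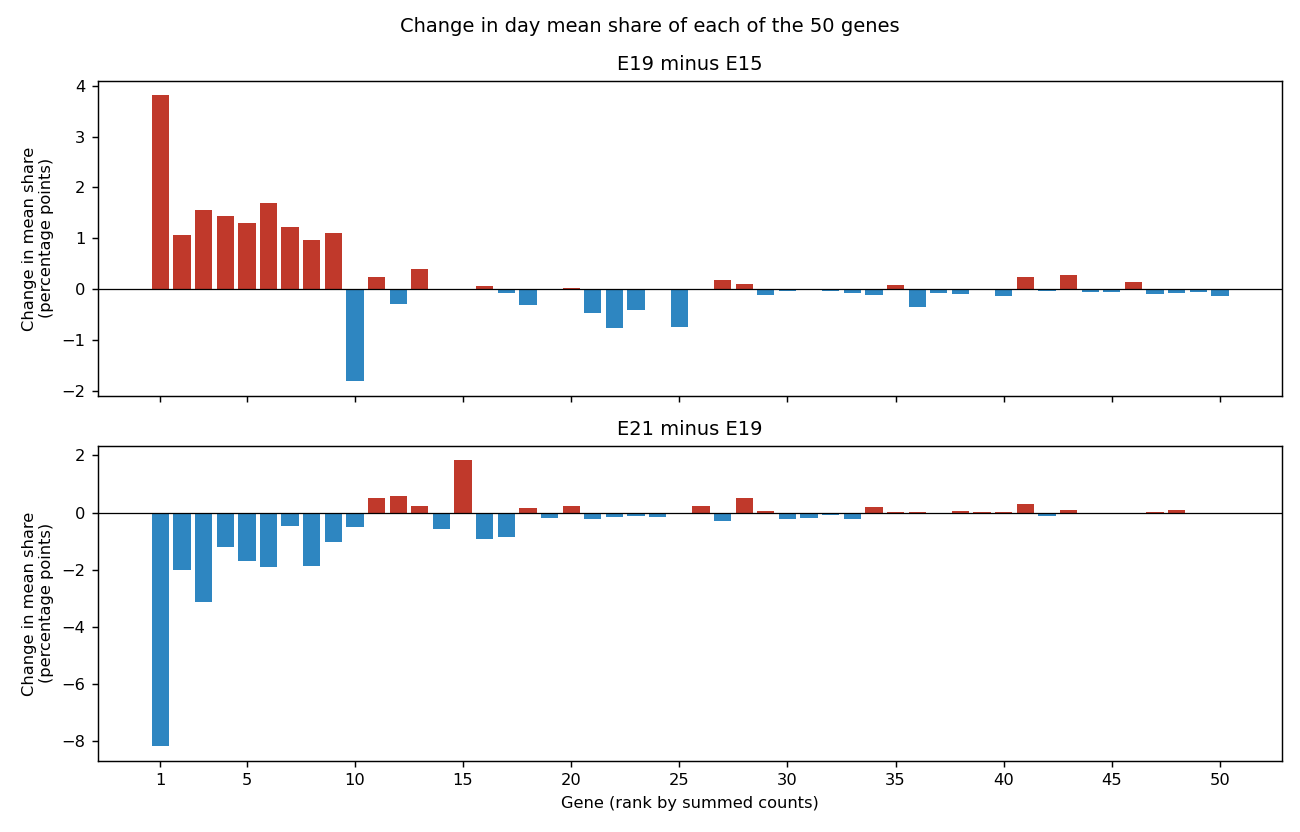
Change in mean share (percentage points) from E15 to E19 (upper panel) and from E19 to E21 (lower panel) for each of the 50 genes in order of rank. Bars above zero are gains and bars below zero are falls: genes 1 to 9 gain up to E19 and fall afterwards, gene 10 falls by 1.81 points up to E19, and gene 15 gains 1.83 points after it.

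Gene 1 had a share between 6.99% and 9.16% at E15, with a median of 7.58%, and 12.1%, 11.7%, 10.3%, 12.03% and 12.1% in the E19 libraries. All E19 libraries lay above all E15 libraries. The mean rose 1.49-fold, or 0.57 on the log2 scale (SE 0.07), with an adjusted p = 1.87e-07 (edgeR quasi-likelihood test, Benjamini-Hochberg over the 5901 genes tested). Most of this came early, as 76.8% of its gain had been made by E17, against 65.0% for genes 1 to 9 together. For the net gain of the 50 genes, of which some fell, it was 58.6%.

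Gene 6 (ENSGALG00000006591.5) had the second largest gain. It lay between 1.11% and 1.53% at E15 with a median of 1.42%, and at 2.83%, 3.14%, 3.14%, 3.26% and 3.07% at E19. The days did not overlap, and the mean rose 2.23-fold (log2 fold change 1.16, SE 0.08, adjusted p = 1.10e-12 in edgeR). It rose in both steps, by 0.803 points to E17 and by 0.902 points to E19.

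Gene 3 gained 1.55 points, but with a wide spread at E19. Its E15 libraries lay between 1.46% and 2.47% with a median of 2.14%, and its E19 libraries at 2.11%, 3.67%, 4.32%, 3.598% and 4.37%. The low value belongs to E19 replicate 1 and falls within the E15 range. On the log2 scale the rise was 0.81 (SE 0.15, adjusted p = 7.06e-05 in edgeR). At E17, where the libraries lay between 2.99% and 3.79%, the gene stood above all E15 libraries.

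Gene 4 was the steadiest of the leading genes at E19. Its libraries stood at 3.13%, 3.19%, 3.24%, 3.09% and 3.18%, against 1.62% to 1.86% at E15. The rise was 1.83-fold (log2 fold change 0.87, SE 0.07, adjusted p = 2.81e-11 in edgeR). Genes 5 and 7 rose by 1.30 and 1.23 points, with log2 fold changes of 0.73 (SE 0.08) and 1.01 (SE 0.10). Genes 2, 8 and 9 rose by 1.06, 0.964 and 1.11 points. The E15 and E19 libraries did not overlap for any of genes 2, 4, 5, 7, 8 and 9, and each passed the test. Of all genes tested, 3.71% were separate in this direction. The lack of overlap is a description, since these genes were picked by their counts or gains in the same libraries.

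Against the rise of these genes, 6 genes lost the most share before E19. Gene 10 (ENSGALG00000036073.1) had a share between 2.19% and 3.20% at E15 with a median of 2.47%, and 0.775%, 0.720%, 0.987%, 0.618% and 0.786% at E19. It was below its E15 range in every later library, and 1.41 of the 1.81 points were lost by E17. From E15 to E19 its log2 fold change was -1.73 (SE 0.19, adjusted p = 1.29e-08 in edgeR). Gene 22 (ENSGALG00000009641.6) fell from between 0.765% and 1.29%, with a median of 0.880%, to 0.214%, 0.201%, 0.211%, 0.163% and 0.170%. Its log2 fold change was -2.32 (SE 0.21, adjusted p = 1.81e-10). Both genes had a lower day mean at each later day, as had genes 21, 23 and 42.

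Gene 25 had the steepest fall of the 50 up to E19. It lay between 0.643% and 0.976% at E15, between 0.320% and 0.445% at E17, and at 0.0663%, 0.0861%, 0.116%, 0.0713% and 0.0653% at E19. The 3 days are separate from each other, and the share at E19 was 0.10 of that at E15 (log2 fold change -3.32, SE 0.19, adjusted p = 2.42e-14 in edgeR). Its means were then 0.0952% at E20 and 0.0764% at E21, a log2 fold change from E19 to E21 of -0.09 by share (adjusted p = 0.705) and -0.77 with TMM factors (adjusted p = 0.00253 in edgeR). Gene 36 followed a similar course, with means of 0.509% at E15, 0.278% at E17 and 0.164% at E19, and then 0.179% and 0.201%. Genes 21 and 23 fell from means of 0.768% and 0.703% at E15 to 0.311% and 0.292% at E19. The E15 and E19 libraries did not overlap for any of these 6 genes, as for 27.8% of all genes tested in this direction. This is a description, since the 6 were picked by their fall between these same libraries.

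A few genes of low rank rose from a small share at E15. Gene 41 lay between 0.0364% and 0.0582% at E15, between 0.105% and 0.173% at E17, and at 0.258%, 0.260%, 0.287%, 0.348% and 0.275% at E19. From E15 to E19 its log2 fold change was 2.54 (SE 0.13, adjusted p = 4.28e-15 in edgeR), and the 3 days were separate. Gene 43 rose further in proportion, from a mean of 0.0444% at E15 to 0.326% at E19, but its E19 libraries ranged from 0.153% to 0.491%. Their shares were small, and they added 0.236 and 0.282 points to the gain.

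Over the whole list, 17 genes were higher at E19 than at E15 and 19 were lower, while 14 did not pass the test (edgeR, adjusted p under 0.05). Of all 5901 genes tested, 7.85% were higher and 49.7% lower. Genes with many counts pass the test at smaller changes than genes with few, and the 50 were chosen by their counts. Numbers of genes called beside percentages of all genes, here and below, are therefore a description. The median log2 fold change was -0.05 over the 50 genes and -0.58 over all genes tested. Shares in a library add up to a whole, so a gain of the 50 genes lowers the summed share of the others. The genes outside the list held a mean of 58.1% of the counts at E15 and 48.5% at E19. The part of this in the median over all genes was not tested. With TMM factors, which set the bulk of the genes level between libraries, 31 of the 50 were higher and 6 lower, against 18.4% and 19.2% of all genes. The median over the 50 genes was then 0.44, and -0.09 over all genes. The same 17 genes were higher on both scales, and the 6 genes lower on both were genes 10, 21, 22, 23, 25 and 36. Genes 44 and 45 were called lower by share and higher with TMM factors. The E15 and E19 libraries were separate for 15 genes upwards (3.71% of all genes) and for 16 downwards (27.8% of all genes).

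By step, 16 genes were higher and 21 lower at E17 than at E15 (3.14% and 24.8% of all genes), or 20 and 5 with TMM factors (9.08% and 8.68%). The libraries of these days were separate for 10 genes upwards and 16 downwards (1.46% and 11.4% of all genes). From E17 to E19, 14 were higher and 14 lower (5.52% and 21.1% of all genes), or 22 and 4 with TMM factors (9.88% and 7.35%). Here 9 genes were separate upwards and 7 downwards (2.2% and 9.41% of all genes). Genes 1, 2, 3 and 8 did not pass the test in the second step by share, with changes of 0.883, 0.272, 0.203 and 0.180 points, while with TMM factors genes 1, 2 and 8 were called higher (adjusted p = 0.00603, 0.00674 and 0.00262 in edgeR) and gene 3 was not. Genes 4, 5, 6, 7 and 9 passed on both scales, with gains between 0.485 and 0.902 points.

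**Figure D4:**
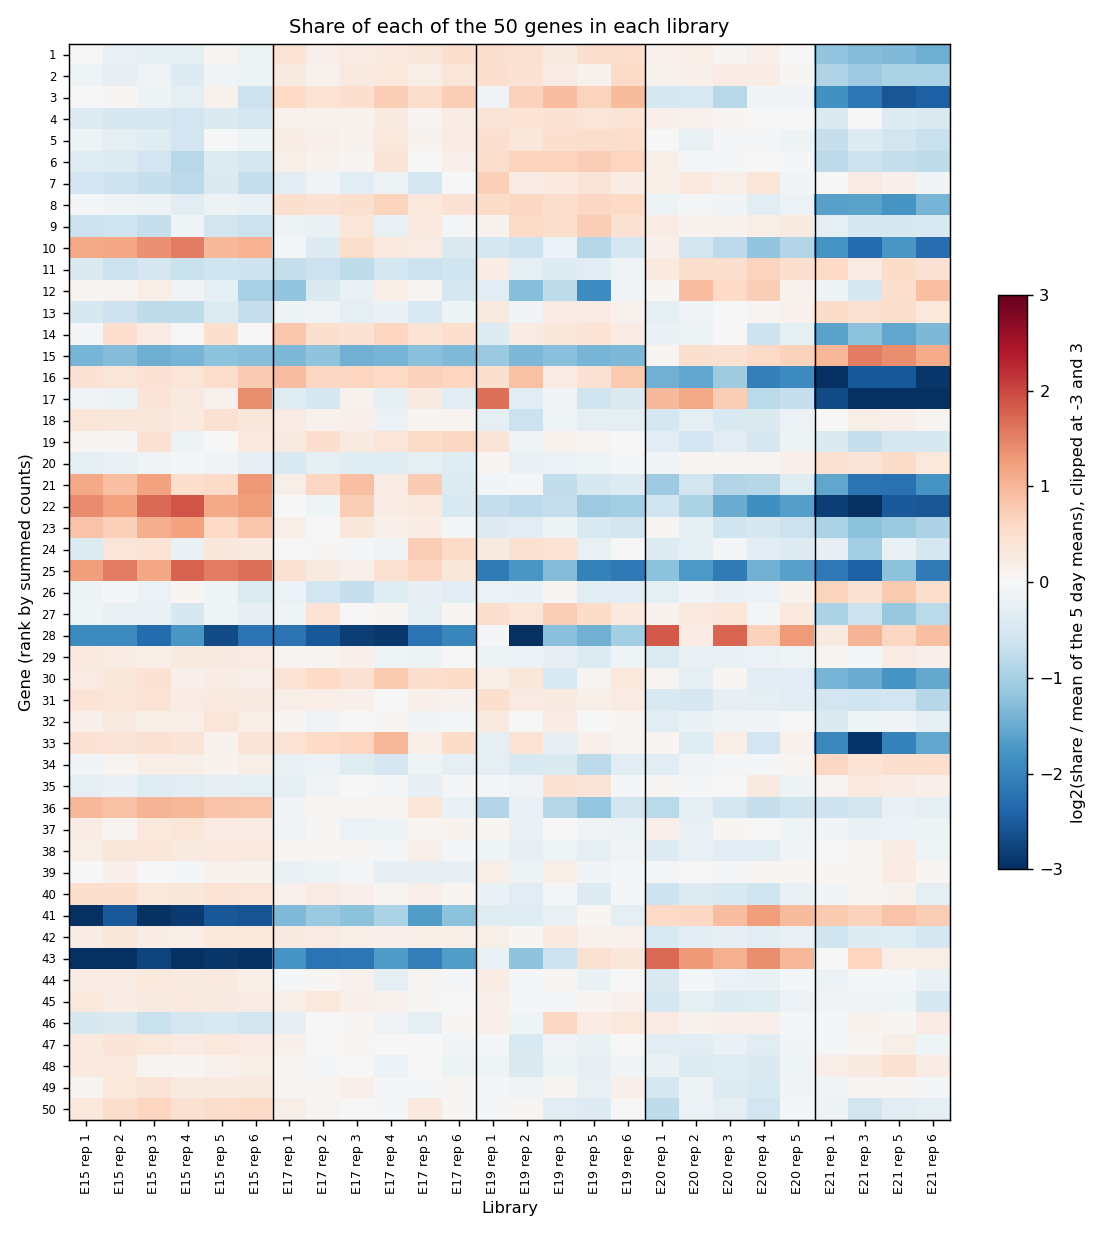
Share of each of the 50 genes (rows, by rank) in each of the 26 libraries (columns, by day), as log2 of the share over the mean of the 5 day means of that gene, red above and blue below, clipped at -3 and 3. Genes 10, 22 and 25 are high at E15, genes 1 to 9 are highest at E19, genes 28, 41 and 43 at E20, and gene 15 at E21.

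Genes 1 to 9 also carried the loss after E19. From E19 to E21 the mean share of the 50 genes fell by 21.1 points, the balance of 26.4 points lost by 30 genes and 5.22 points gained by 20. Genes 1 to 9 fell by 21.4 points in all, which is 81.4% of the points lost, and gene 1 alone fell by 8.18 points. At E19 gene 1 held 11.6% of the counts and genes 2 to 9 held 23.4%, of 51.5% for the 50 genes. Genes 10 to 50 together changed by 0.309 points. This comparison shares the E19 libraries with the one before it, so a library that happened to be high at E19 would enter both.

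Gene 1 fell from the E19 levels given above to 9.35%, 9.80%, 8.93%, 9.52% and 8.71% at E20 and to 3.78%, 3.50%, 3.45% and 3.10% at E21. The 3 days did not overlap. On the log2 scale it changed by -1.75 from E19 to E21 (SE 0.09, adjusted p = 1.62e-16 in edgeR), and the larger part came late, with -0.33 from E19 to E20 and -1.42 from E20 to E21. At E21 the gene had 0.44 of its E15 share.

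Gene 3 lost 3.13 points and gene 8 lost 1.85 points, both to levels far below E15. Gene 3 stood at 0.640%, 0.504%, 0.380% and 0.413% at E21, or -2.90 on the log2 scale against E19 (SE 0.19, adjusted p = 6.98e-14 in edgeR). Gene 8 stood at 0.516%, 0.526%, 0.471% and 0.608%, or -2.17 on that scale (SE 0.09, adjusted p = 9.65e-19). For both genes every E21 library was below every E15, E17, E19 and E20 library. Their falls at E20 were already large, with 0.48 and 0.60 of the E19 share.

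Genes 2, 5 and 6 changed by -2.01, -1.70 and -1.89 points, with log2 fold changes of -1.35 (SE 0.09), -1.06 (SE 0.09) and -1.37 (SE 0.09). Gene 6 came back to 1.14%, 1.27%, 1.20% and 1.17% at E21, within its E15 range. Against E15 it was called lower on both scales (log2 fold change -0.43 with TMM factors, adjusted p = 0.000448 in edgeR). Genes 4 and 7 held more of their share. Gene 4 stood at 1.78%, 2.38%, 1.85% and 1.79% at E21, where replicate 3 was high. Its E21 mean of 1.95% lay above the 1.73% of E15, but the other E21 libraries lay within the E15 range of 1.62% to 1.86%. Against E15 its log2 fold change with TMM factors was -0.04 (adjusted p = 0.710 in edgeR). Gene 7 had 1.88%, 2.22%, 2.08% and 1.79%, which overlapped with E19. Its log2 fold change by share of -0.30 (SE 0.11, adjusted p = 0.0207) did not pass without E19 replicate 1 (adjusted p = 0.104), without E21 replicate 1 or without E21 replicate 6. With TMM factors genes 4 and 7 were both called lower at E21 than at E19. Their log2 fold changes were then -1.40 and -0.999 (adjusted p = 2.45e-13 and 1.28e-07 in edgeR).

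Some genes beyond genes 1 to 9 also fell. Gene 16 had means of 0.949%, 1.09% and 1.01% on the first 3 days, and then 0.251%, 0.230%, 0.323%, 0.162% and 0.180% at E20 and 0.0737%, 0.117%, 0.116% and 0.0890% at E21. All E20 libraries lay below all earlier ones and above all E21 libraries. From E19 to E21 its log2 fold change was -3.36 (SE 0.17, adjusted p = 4.63e-16 in edgeR). Genes 14, 30 and 33 had means of 0.847%, 0.331% and 0.291% at E19 and 0.274%, 0.105% and 0.0690% at E21. Genes 14, 16, 30 and 33 lie outside the rule for genes described singly and were picked after their values had been seen.

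Fewer genes gained. Gene 15 gained 1.83 points, the most of the 50. It lay between 0.329% and 0.421% in all 17 libraries up to E19, and then at 0.960%, 1.28%, 1.25%, 1.35% and 1.46% at E20 and at 1.81%, 2.63%, 2.38% and 1.98% at E21. The first 3 days overlapped, while E20 and E21 were each separate from all others. From E15 to E19 its log2 fold change was 0.06 by share (adjusted p = 0.614) and 0.54 with TMM factors (adjusted p = 9.49e-05 in edgeR). From E19 to E21 it rose 5.88-fold (log2 fold change 2.56, SE 0.11, adjusted p = 3.35e-18 in edgeR), and it was 1.85 with TMM factors.

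Gene 28 rose from 0.416%, 0.0476%, 0.177%, 0.157% and 0.209% at E19 to 1.53%, 0.507%, 1.43%, 0.681% and 1.03% at E20, and stood at 0.513%, 0.861%, 0.657% and 0.796% at E21. Its libraries were spread widely at E19 and E20, where the SD was 66.8% and 43.3% of the mean. Between E19 and E21 it rose 3.51-fold (log2 fold change 1.81, SE 0.34, adjusted p = 3.83e-05 in edgeR). Gene 41 rose to a mean of 0.621% at E20 and stood at 0.571% at E21. With TMM factors gene 41 was called lower at E21 than at E20 (log2 fold change -0.49, adjusted p = 0.0215 in edgeR). Gene 11 rose from a mean of 0.968% at E19 to 1.54% at E20 and 1.49% at E21, a log2 fold change of 0.62 from E19 to E21 by share, against -0.08 with TMM factors (adjusted p = 0.606). The rises of genes 12, 26 and 41 from E19 to E21, of 0.573, 0.239 and 0.285 points, passed the test by share but not with TMM factors (log2 fold changes of 0.30, 0.10 and 0.30).

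**Figure D5:**
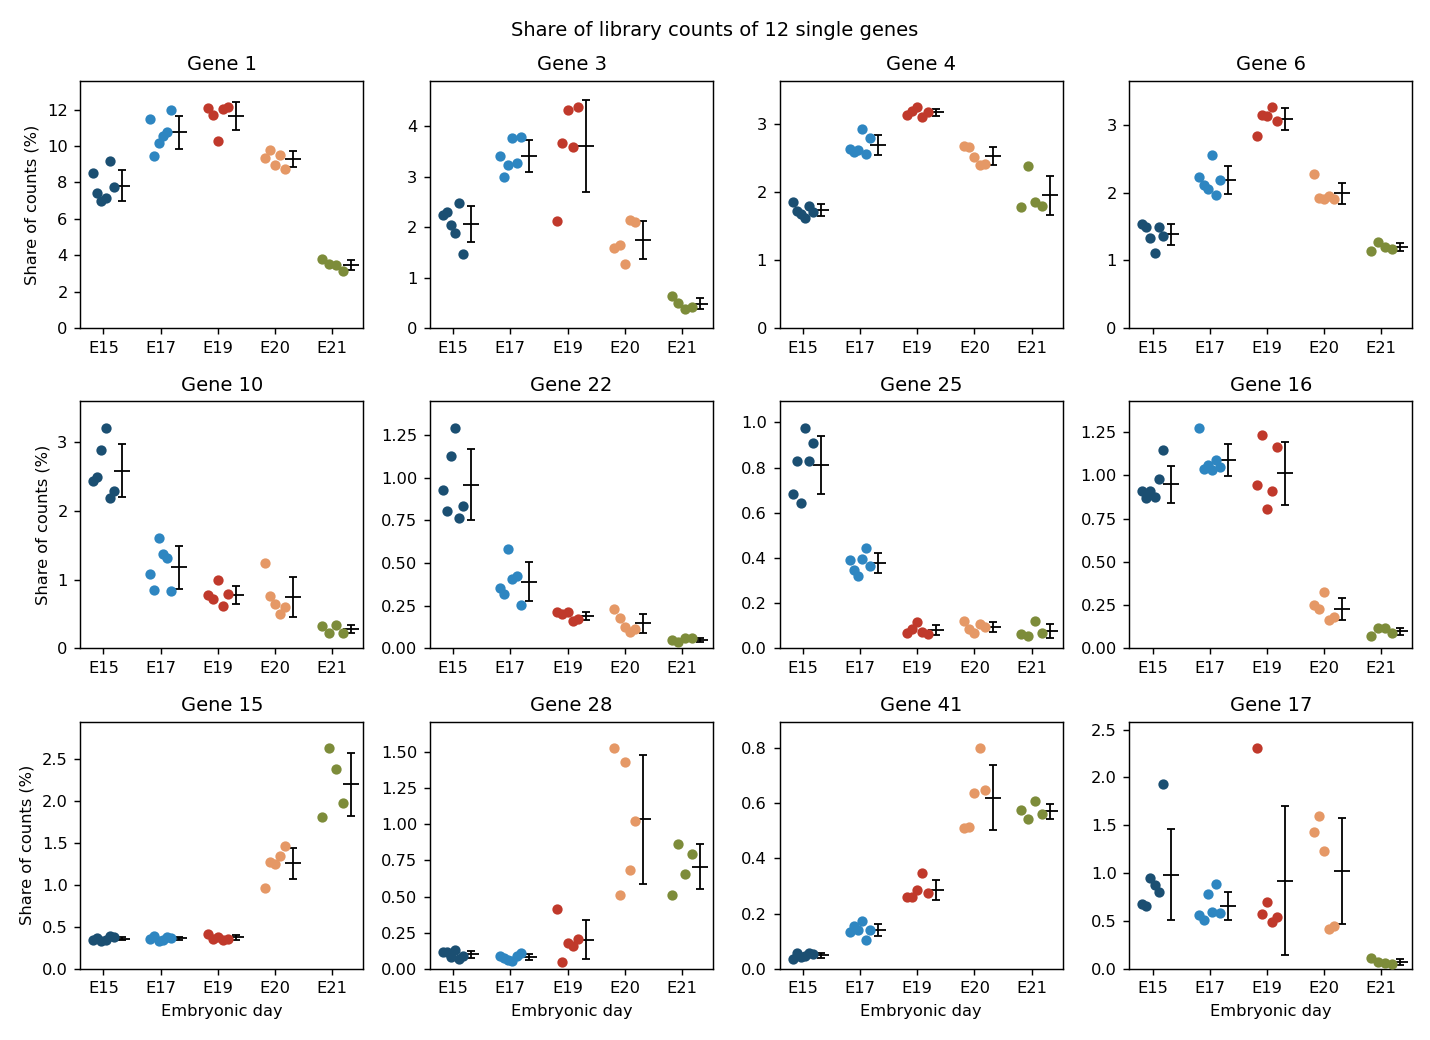
Share of library counts (%) against embryonic day for 12 single genes, 1 point per library with the mean and SD of each day beside it in black. Genes 1, 3, 4 and 6 are highest at E19, genes 10, 22 and 25 at E15, gene 16 is lower from E20 on, genes 15, 28 and 41 are high at E20 and E21, and gene 17 varies widely within E15, E19 and E20.

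From E19 to E21, 13 of the 50 genes were higher and 25 lower by share, and 12 did not pass the test (edgeR, adjusted p under 0.05). Of all genes tested, 55.4% were higher and 7.52% lower. The median log2 fold change was -0.21 over the 50 genes and 0.71 over all genes. With TMM factors 2 of the 50 were higher, genes 15 and 28, and 40 were lower, against 20.3% and 21.2% of all genes. The 25 genes lower by share were all lower with TMM factors too. Genes 13, 18, 29 and 38 were called higher by share and lower with TMM factors. The libraries were separate for 11 genes upwards (41.6% of all genes) and 23 downwards (4.63% of all genes).

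By step, 7 genes were higher and 19 lower at E20 than at E19 (29.7% and 5.63% of all genes), or 6 and 37 with TMM factors (13.9% and 13.6%). The libraries were separate for 6 upwards and 10 downwards (16.8% and 2.36% of all genes). Between E20 and E21, 12 were higher and 20 lower (28.7% and 4.17% of all genes), or 2 and 30 with TMM factors (5.78% and 8.59%). The libraries were separate for 8 upwards and 20 downwards (21.5% and 2.75% of all genes). Of the fall of the 50 genes, 34.5% had come by E20. For genes 1 to 9 it was 42.8% and for gene 1 it was 29.0%.

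Between the first and the last day, E15 and E21, 13 genes were higher and 32 lower by share (35.7% and 22.2% of all genes), or 11 and 33 with TMM factors (27.4% and 28.6% of all genes). The libraries were separate for 12 genes upwards and 28 downwards (27.8% and 17% of all genes). The summed share of the 50 genes was 11.5 points lower at E21. Gene 1 accounted for 4.37 points of that and gene 10 for 2.30. The largest relative changes belonged to gene 41, which rose 11.6-fold (log2 fold change 3.53, SE 0.14, adjusted p = 4.70e-19 in edgeR), and gene 22, whose share at E21 was 0.05 of that at E15 (log2 fold change -4.22, SE 0.25, adjusted p = 3.93e-15). Gene 7 was the only one of genes 1 to 9 with E21 libraries all above its E15 libraries.

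By day of the highest mean, 19 of the 50 genes peaked at E15 and 6 at E17. The later days E19, E20 and E21 had the peaks of 11, 6 and 8 genes. The lowest mean was at E21 for 23 genes, at E20 for 10 and at E15 for 9. These numbers are a description, since the choice by summed counts favours genes high on the days with more counts. Genes 14, 16, 19, 24, 30 and 33 were highest at E17, with E17 means from 0.423% (gene 33) to 1.09% (gene 16), and all 6 were lowest at E21. Genes 13, 15, 20, 26, 34, 35, 39 and 48 were highest at E21, with E21 means from 0.316% (gene 39) to 2.20% (gene 15). Gene 13 had means of 0.570% at E15, 0.977% at E19, 0.859% at E20 and 1.20% at E21, and from E19 to E21 it was called higher by share and lower with TMM factors. Gene 20 rose from 0.484% at E15 to 0.732% at E21. Gene 27 had the course of the leading genes at a lower level, with means of 0.294%, 0.354%, 0.488%, 0.400% and 0.189% in order of age. Gene 46 rose from 0.198% at E15 to 0.339% at E19 and stood at 0.300% at E21. Genes 13, 20, 27, 43 and 46 were likewise named after their values had been seen.

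Of the 30 genes not described singly by the rule, 6 were higher and 12 lower at E19 than at E15 by share (7.85% and 49.7% of all genes), or 18 and 0 with TMM factors (18.4% and 19.2%). Their changes ran from -0.296 points (gene 18) to 1.11 points (gene 9). From E19 to E21, 7 were higher and 13 lower by share (55.4% and 7.52% of all genes), or 0 and 26 with TMM factors (20.3% and 21.2%). These changes ran from -1.02 points (gene 9) to 0.226 points (gene 13). In genes 29, 32, 35, 37, 38, 39, 44, 47 and 49 the 5 day means lay within 1.5-fold of each other, between 0.205% and 0.385%. Together these 9 genes held 2.96% of the counts at E15, 2.55% at E19 and 2.61% at E21. Over the 50 genes the median ratio of the highest to the lowest day mean was 2.06, against 2.41 over all genes tested. This ratio is a description, since counting error raises it more in genes with few counts.

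The spread between libraries of 1 day is given as a description, since it falls with the count and the genes were chosen by their counts. The median SD was between 7.81% (E15) and 12.4% (E19) of the mean, against 21.7% to 31.7% over all genes tested. The median biological coefficient of variation of the edgeR fit, which sets counting error aside, was 12.5% over the 50 genes and 18.7% over all genes tested. Some members were far more variable. Gene 17 stood at 2.30%, 0.574%, 0.695%, 0.486% and 0.545% at E19, and at 1.43%, 1.60%, 1.23%, 0.418% and 0.450% at E20. At E15 it reached 1.93% in replicate 6 against a median of 0.839%. At E21 it was at 0.114%, 0.0671%, 0.0613% and 0.0473%, below every earlier library, with a log2 fold change from E20 of -3.82 (SE 0.46, adjusted p = 3.45e-07 in edgeR). Gene 12 ranged from 0.256% to 0.864% at E19 and from 0.655% to 1.75% at E21. Its log2 fold change of -0.61 from E15 to E19 (adjusted p = 0.0496) did not pass with TMM factors (-0.11, adjusted p = 0.797), nor by share in 16 of the 26 fits that left out 1 library. Genes 12 and 17 were picked here after their spread had been seen.

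Library E19 replicate 1 had the highest E19 share of genes 7, 11, 17 and 28 and the lowest of gene 3, and over the 50 genes it was the highest of its day for 16. Other libraries were at the end of their day for more genes: E20 replicate 5 and E21 replicate 5 were highest for 19 each, E20 replicate 1 was lowest for 20 and E19 replicate 5 for 19. E21 had 4 libraries against 5 at E19 and E20, so a library of E21 is more often at an end. Without E19 replicate 1, 16 genes were higher and 20 lower at E19 than at E15, and the percentages of all genes are not given. With all libraries the numbers were 17 and 19, against 7.85% and 49.7% of all genes. The rise of gene 28 from E15 to E19, a log2 fold change of 1.02 (adjusted p = 0.00624 in edgeR), did not pass without E19 replicate 1 (0.57, adjusted p = 0.0905). Its total of 941808 counts lay within the range of the other libraries. Its part in the spread of the other genes was not tested.

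The authors' deposited table places 21 of the 50 genes in 1 of its 5 clusters, against 917 of all 8758 genes. Of these 21, 12 were in cluster 2, 5 in cluster 1, 2 in cluster 4 and 2 in cluster 5, with none in cluster 3. Of the 917 genes, 172 were in cluster 2, 163 in cluster 4, 294 in cluster 5, 87 in cluster 3 and the rest in cluster 1. Genes 1, 2, 3, 6 and 8 were in cluster 2, genes 10, 21, 22, 23 and 25 in cluster 1, genes 41 and 43 in cluster 4, and genes 15 and 28 in cluster 5. Genes 4, 5, 7 and 9 were in none. By the authors' deposited table, 3 of the 50 passed an adjusted p of 0.05 and a 2-fold change from E15 to E17, against 2.71% of all genes, and 4 from E17 to E19, against 4.78%. In the same deposited table of the authors, 7 passed from E19 to E20 (8.86% of all genes) and 16 from E20 to E21 (4.16% of all genes). The last 16 were all lower at E21, as were 3.22% of all genes in the authors' deposited table. The clusters were made from these same libraries and are not independent evidence of a direction.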

How the data were processed

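Counts of 26 libraries from complexus muscle of 5 days were analysed. The authors deposited whole-number raw counts per gene, per the file headers, in 1 column for each library. The series description names MARS-Seq, and HTSeq 2.0.2, STAR 2.7.10a and DESeq2 appear in the submitters' processing notes. For the genome build, the annotation, the strand setting and molecular identifiers, details were not given in the sources used here, so reads of near-identical or overlapping genes cannot be told apart. Per the file headers the authors also deposited a normalised signal per library, which equalled the count over 1 size factor within a relative difference of 0.000125 and served to check the columns. Their deposited log2 fold changes, adjusted p-values and cluster numbers were used only where named, at 2-fold and an adjusted p of at most 0.05. Of 8758 identifiers, 0 matched the 25635 genes of the RefSeq table (assembly GRCg7b). Lists of marker genes and pathways, which need names, are therefore not analysed here.

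The members, lists and tests were chosen with earlier results of these data known. Members were ranked by summed raw counts. A share is the count of a gene over all counts of its library in the table. Libraries within a day were compared in 56 pairs by a chi-square of their counts, which gave 2.76 to 11.5 per degree of freedom, and each was kept as 1 sample. The counts were fitted in edgeR 4.0.16 (R 4.3.3, quasi-likelihood test) with library totals as the only scale, so that fold changes are those of the shares. Day was the only term, in 1 fit of the 26 libraries. The filter filterByExpr (minimum count 10, minimum total 15) kept 5901 genes with 99.2% of the counts, all 50 members among them. The Benjamini-Hochberg adjustment ran over these 5901 genes, and a gene was called at an adjusted p under 0.05. The SE of a log2 fold change is its size over the square root of the F statistic. The fit was tested on simulated data in which only genes with a smaller share than any of the 50 were changed. That simulation therefore does not check the tests of the 50 genes. Described singly, by rule, are the 5 genes with the largest mean share and, from E15 to E19 and from E19 to E21, the 6 with the largest gain and the 6 with the largest fall in points. At most 2 identifiers in each direction are printed.

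The alternatives were TMM factors, DESeq2 1.42.0, no filter, a fit of the days compared only, the replicate number as a block, an adjusted p under 0.01, 2 other choices of members, another denominator, the list without gene 1, and each library left out in turn.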

Additional observations from a re-analysis of the deposited data

Results flagged for a closer look

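Among 105 sets of values (the 20 genes described singly and the summed share, on each of the 5 days), 4 held a library whose gap to the nearest other one was large for the range of its day. Chance gives about 1 in 20 such sets. Gene 1 had 10.3% of the counts in E19 replicate 3, against 11.7% to 12.1% in the other E19 libraries. Gene 5 had 2.96% in E19 replicate 2, against 3.29% to 3.37%. Gene 6 had 2.27% in E20 replicate 1, against 1.90% to 1.95%. Gene 4 had 2.38% in E21 replicate 3, against 1.78% to 1.85%. The wide spread of gene 17 does not appear among them, because it was not described singly by the rule.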

How the results depend on the processing

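The counts of the 50 genes that were higher or lower depended on the scale. Among the fits, percentages of all genes called are given for library totals and TMM factors only. Counts from DESeq2, from an adjusted p under 0.01, from the replicate block or without single libraries have none beside them. DESeq2, which like TMM rescales the libraries, gave 32 higher and 6 lower from E15 to E19 (TMM 31 and 6), 2 and 42 from E19 to E21 (TMM 2 and 40), 25 higher and 3 lower from E17 to E19 (TMM 22 and 4), 5 lower from E15 to E17 (TMM 5), 39 lower from E19 to E20 (TMM 37), and 2 higher and 32 lower from E20 to E21 (TMM 2 higher). At an adjusted p under 0.01, 10 genes were lower from E15 to E17, 8 from E17 to E19 and 11 from E19 to E20. Without gene 1 in the list and in the totals the summed share was, in order of age, 36.95%, 41.2%, 45.2%, 38.6% and 27.9%, changes of 8.22 points to E19 and -17.3 points to E21.

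Leaving out single libraries moved no count of genes by more than 1.5-fold. The ranges were 16 to 17 higher and 17 to 20 lower for E19 against E15, and 12 to 14 and 23 to 26 for E21 against E19. Changes in the summed share ranged from 9.24 to 10.01 points and from -21.4 to -20.7 points. Single genes changed sign in a few cases. Gene 26 from E15 to E19 (log2 fold change -0.05) was at 0.44 with TMM factors and 0.46 with DESeq2, gene 11 from E19 to E21 (0.62) at -0.083 and -0.11, and gene 36 from E19 to E21 (0.29) at -0.41 and -0.44. Gene 25 from E19 to E21 (-0.09) ranged from -0.40 to 0.081 without single libraries, with 0.081 without E19 replicate 3 and 0.05 without E21 replicate 3. The cause was not tested. Other alternatives left the counts within 1.5-fold.

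Replicate numbers did not pair the libraries: over 45 same-numbered pairs of different days, the correlation of deviations from the day means lay between -0.115 and 0.0662, and 0 of 26 libraries correlated best with its own number. With the replicate block, 17 genes were higher and 18 lower for E19 against E15, and 14 and 25 for E21 against E19. With library totals and no block, the numbers were 17 and 19 (7.85% and 49.7% of all genes), and 13 and 25 (55.4% and 7.52%). The percentages of all genes with the block are not given.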
